A study of Mus musculus with 9 samples.

Results

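The proteasome genes of the adult mouse midbrain were compared between 3 Dot1l genotypes. They were taken as all protein-coding mouse genes with a symbol that starts with Psma, Psmb, Psmc, Psmd, Psme, Psmf or Psmg, which gave 50 genes of the 47729 identifiers counted (21697 of them protein-coding). By role they were 7 alpha and 7 beta subunits of the 20S core, 3 immunoproteasome subunits, 6 ATPases and 11 non-ATPase subunits of the 19S cap, 5 activators and inhibitors, 7 assembly factors and 2 tissue-restricted core subunits. The remaining 2 carry the stem only: Psme2b is a near copy of Psme2, and Psmc3ip encodes a factor of meiotic recombination that is no part of the proteasome. Of the 50 genes, 49 passed the filter on low counts, and Psmb11 did not, with 0 to 11 counts in a library.

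The libraries were made from dissected midbrain of mice at P180, with 3 libraries per genotype. Each library was a pool of 3 mice, and the pools were made from sets of the 3 genotypes taken from the same litters. All mice were C57/Bl6, carried 1 Pitx3-Cre allele and the Rosa-lox-stop-lox-Yfp reporter, and differed in having no floxed Dot1l allele, Dot1l(+/+), 1 floxed allele, Dot1l(fl/+), or 2 floxed alleles, Dot1l(fl/fl). The controls thus share the Cre allele and the reporter with the other groups. Since Cre is made from the Pitx3 locus, recombination of Dot1l, the methyltransferase of histone H3 on lysine 79, is limited to dopamine neurons, while the dissected tissue also held other cell types that keep the gene. The labels call the samples dopamine neurons, and the 10 dopamine neuron markers were all counted, with a summed level of 588 to 833 CPM (counts scaled to the library size) per library, beside 4204 to 4793 CPM for 8 astrocyte markers.

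Libraries held 16422135 to 28403218 counts, and the spread between replicates (common biological coefficient of variation) was 8.81%. Dot1l itself was counted at 85.2, 80.2 and 85.1 CPM in the Dot1l(+/+) pools, 84.2, 60.6 and 75.6 in the Dot1l(fl/+) pools and 82.1, 73.9 and 82.8 in the Dot1l(fl/fl) pools, with log2 fold changes of -0.19 ± 0.09 (SE) for Dot1l(fl/+) and -0.07 ± 0.09 for Dot1l(fl/fl) against controls (adjusted p = 0.620 and 0.999, edgeR). The gene-level count covers all exons and so does not measure the loss of the floxed exon 5. In such bulk tissue, fewer cells of a type and less RNA per cell cannot be told apart.

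The proteasome degrades proteins that carry ubiquitin chains. Its 20S core is a barrel of stacked alpha and beta rings, in which the beta subunits Psmb5, Psmb6 and Psmb7 carry the catalytic sites, and its 19S cap recognises ubiquitin, unfolds the substrate with a ring of ATPases and feeds it into the barrel. In immune cells and after interferon, the catalytic subunits are exchanged for Psmb8, Psmb9 and Psmb10, and impaired clearance by the proteasome has long been studied in dopamine neurons in relation to Parkinson's disease.

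In control midbrain the median levels of the core and cap groups, 60.8 to 151 TPM, were above those of the activators and inhibitor (33.98 TPM), the assembly factors (27.7 TPM) and the immunoproteasome (3.24 TPM), while single genes of these groups overlapped. Levels between genes were compared per length, as TPM (transcript shares scaled alike in every library) computed from the counts and the merged exon length. The median over the 7 alpha genes was 60.8 TPM, with a range from 22.9 ± 1.35 TPM for Psma3 (SD, n = 3) to 255 ± 17.1 TPM for Psma6, and over the 7 beta genes 75.5 TPM, from 14.1 ± 2.60 TPM for Psmb3 to 198 ± 9.88 TPM for Psmb4. The ATPases had the highest median, 151 TPM, led by Psmc5 at 445 ± 43.7 TPM, and the 11 non-ATPase cap genes a median of 92.0 TPM, from Psmd11 at 27.8 ± 2.22 TPM to Psmd7 at 168 ± 12.3 TPM. With the longest transcript as the length, the median of the beta genes was 131 TPM. Psmd7 and Psmd2, the next gene at 167 ± 5.63 TPM, did not differ beyond their spread.

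The lower part of the scale was held mostly by genes outside the standard particle. Psmg3 was the lowest assembly factor with 8.17 ± 1.20 TPM and Psmd10 (gankyrin, a chaperone of the ATPase ring) the highest with 49.4 ± 1.05 TPM, although with the longest transcript as the length Psmd5 (49.3 TPM) was above Psmd10 (40.2 TPM). Among the activators, Psme3 (the nuclear PA28 gamma) stood at 144 ± 0.920 TPM and Psme2 (PA28 beta) at 6.63 ± 1.18 TPM. The tissue-restricted genes were near the floor of detection: Psma8, an alpha subunit of the testis, had 0.835 ± 0.314 TPM, and Psmb11, the beta subunit of the thymus, 0.110 ± 0.0136 TPM.

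Several of the genes share sequence with other annotated genes, so that reads from them may have been dropped or counted elsewhere, and how the counting treated such reads is not given in the sources used here. Per merged exon length, Psmb3, Psma3, Psma5 and Psma4 were the 4 lowest of the 14 standard core genes, and they shared 17.8%, 15.4%, 49.1% and 11.6% of all 50-base windows of their transcripts with other genes. Such shares were not particular to the low genes, since Psmc1 (233 ± 15.7 TPM) shared 14.1% and Psmd2 (167 ± 5.63 TPM) 17.8%. Psmb5, which took the place of Psma4 among the 4 lowest with the longest transcript, shared 54.1% and Psme2 28.3%. Psmb7 shared 9.26% and Psmc3 4.37% with a gene on the opposite strand, which matters only if the counting ignored strand. The value of Psme2b (65.7 ± 6.86 TPM), which shares 69.3% of its windows, is uncertain for the same reason.

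**Figure D1:**
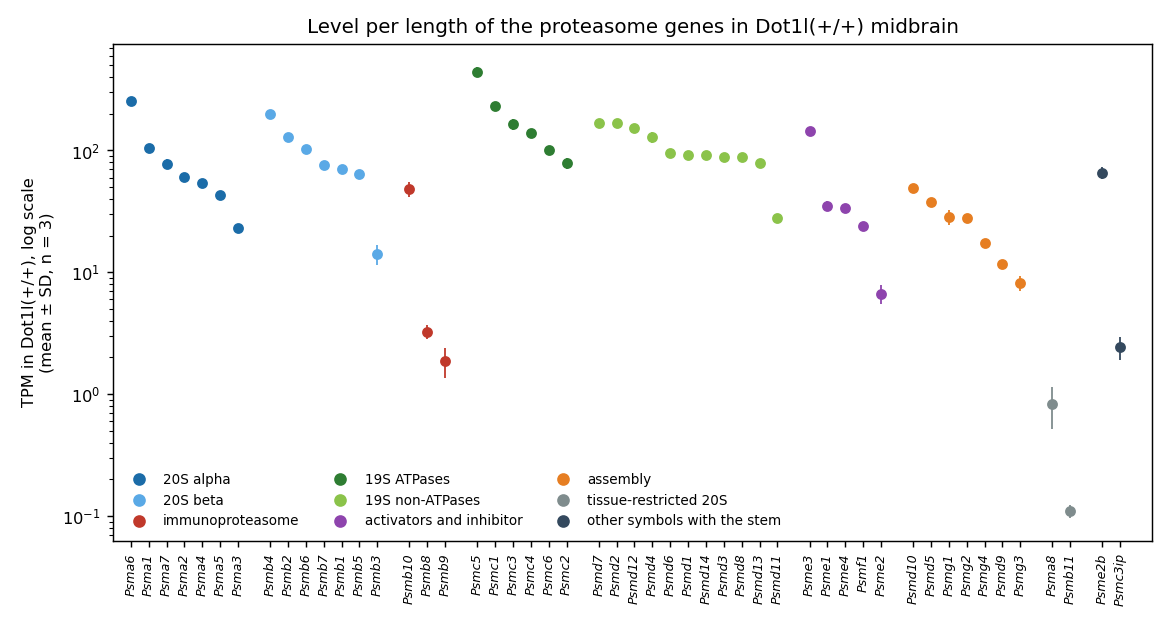
Level per length (TPM, log axis) of each of the 50 proteasome genes in Dot1l(+/+) midbrain, grouped by role and sorted by level; points are means and bars SD over 3 libraries. All standard core and cap genes except Psmb3 lie between 22.9 and 445 TPM, while Psmb8, Psmb9, Psma8, Psmb11 and Psmc3ip lie under 5 TPM.

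The first comparison asked whether 1 floxed Dot1l allele goes with another level of the proteasome genes. In Dot1l(fl/+) midbrain, 41 of the 49 genes tested (83.7%) were higher than in controls, against 48.9% of all 17671 genes tested, with a median log2 fold change of 0.10 for the proteasome genes and 0.00 for all genes. The shifts were small, from -0.11 (Psmg3) to 0.48 (Psmc3ip), or to 0.42 (Psmg4) without Psmc3ip and Psme2b. Both of these genes, which carry the stem only, are counted among the 41. Adjusted for all genes, 0 of all genes passed a threshold of 0.05 (0%), beside 1483 at an unadjusted p under 0.05 and 7 past the adjusted threshold in DESeq2. The lowest adjusted p of a proteasome gene was 0.541 (edgeR quasi-likelihood test, Benjamini-Hochberg). Without adjustment, 11 proteasome genes (22.4%) had p under 0.05 and a higher level, beside 4.30% of all genes, and 0 had p under 0.05 and a lower level, beside 4.09%. These 11 were the beta subunits Psmb4, Psmb6 and Psmb7, the immunoproteasome subunit Psmb10, the ATPases Psmc2, Psmc3 and Psmc4, the cap subunits Psmd4, Psmd6 and Psmd8, and the assembly factor Psmg4. In 9 genes, Psme2b among them, all Dot1l(fl/+) libraries lay above all controls (6.84% of all genes did). In 1, the inhibitor Psmf1, all lay below (6.47%).

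**Figure D2:**
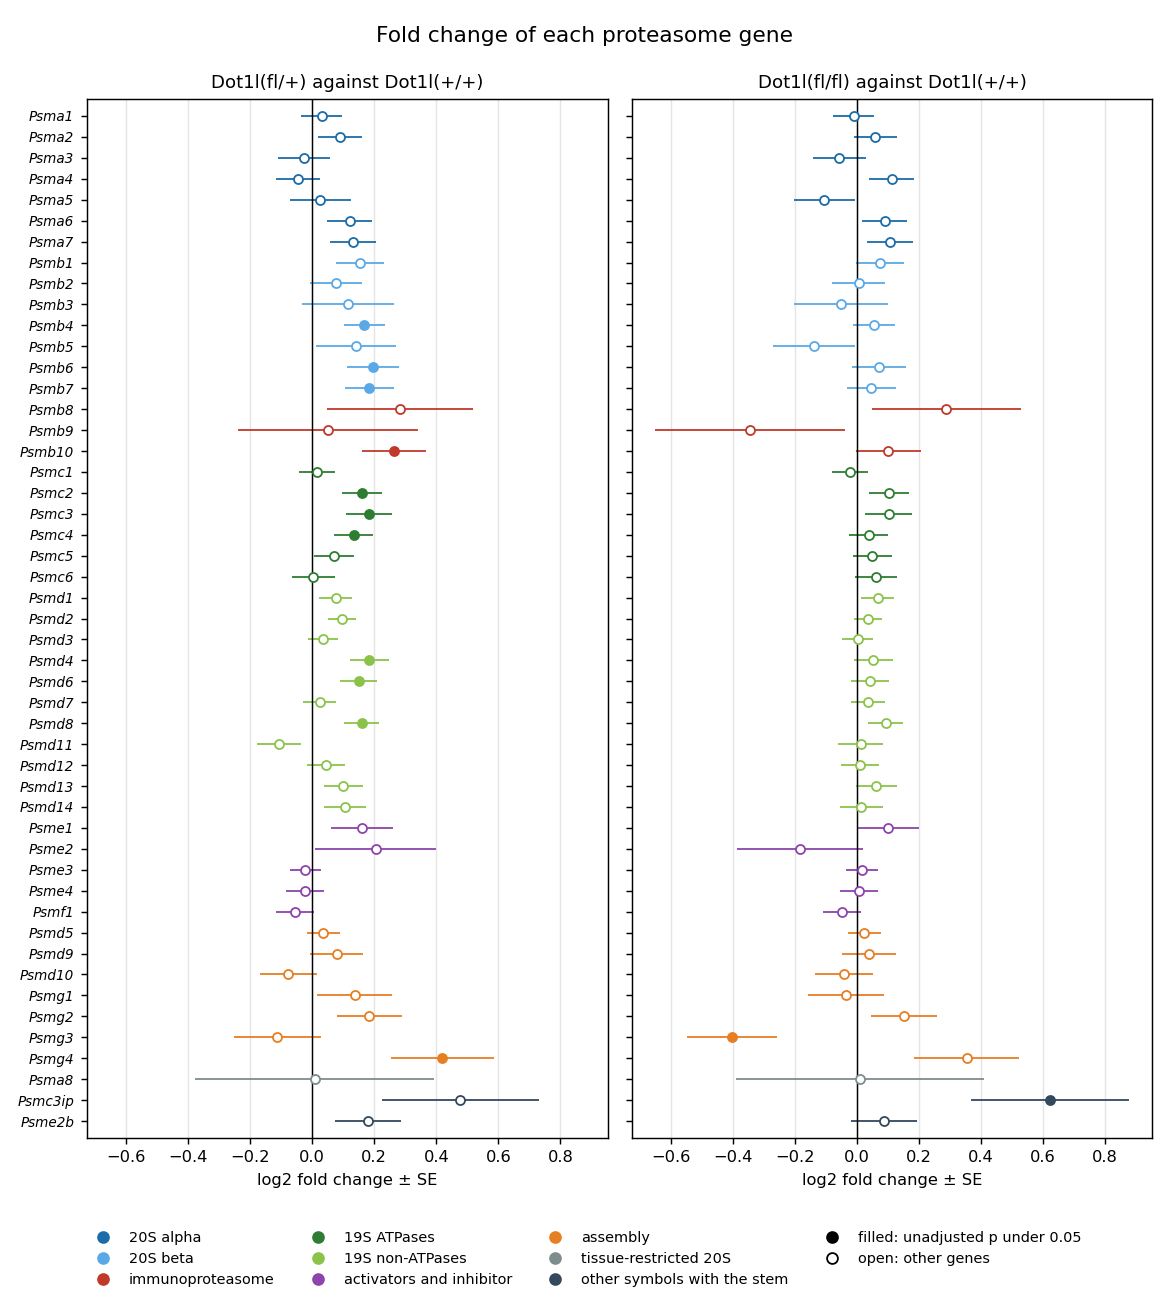
Log2 fold change (points) with SE (bars) from the edgeR fit of all 9 libraries for the 49 proteasome genes tested, for Dot1l(fl/+) (left) and Dot1l(fl/fl) (right) against Dot1l(+/+); colours give the role and filled points an unadjusted p under 0.05. On the left 41 points lie right of 0 and 11 are filled, all higher; on the right 37 lie right of 0 and 2 are filled, Psmc3ip higher and Psmg3 lower.

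The start sites of the proteasome genes were also described by short motifs. Since the 11 genes were picked by their p in these data, the counts among them are no test of a shared motif. RefSeq windows of 300 bases that span the annotated start (GRCm38.p6) were at hand for 42 of the 50 genes, and both strands were searched. The 4 motifs kept, listed here with the share of all 27025 genes and of the 12209 tested genes that had a window, were chosen after matches had been seen, from among several patterns looked at. The core of the ETS site, CGGAAG, stood in 23 of 42 proteasome genes (54.8%), against 18.8% of all genes and 31.0% of the tested genes, and in 6 of the 9 genes with a window among the 11. The core of the antioxidant response element, TGACNNNGC, through which Nfe2l1 and related factors bind, stood in 6 of 42 (14.3%), against 14.0% and 16.7%, and in 1 of the 9. The GC box, GGGCGG, stood in 54.8% of the proteasome genes, against 38.2% and 65.9%, and in 5 of the 9. The CCAAT box, CCAAT, stood in 35.7%, against 41.1% and 42.2%, and in 2 of the 9. The letters of these motifs overlapped in 1 gene, Psmd9. A match is a description of letters, and no binding was measured. The stretches shown lie before the start site, outside every annotated gene, in 4 genes whose Dot1l(fl/+) pools all lay above the controls, written 5′ to 3′ on the strand of the gene with the motif in capitals, first the ETS core (as its reverse complement in Psmd2), then the antioxidant element and the GC box (as its reverse complement).
Psmd4 (chr3:95042708-95042763, minus strand): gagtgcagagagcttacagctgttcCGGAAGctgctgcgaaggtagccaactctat
Psmd2 (chr16:20651601-20651651, plus strand): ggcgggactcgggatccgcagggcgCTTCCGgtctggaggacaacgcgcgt
Psmb6 (chr11:70525323-70525356, plus strand): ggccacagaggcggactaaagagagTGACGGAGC
Psmg4 (chr13:34162910-34162963, plus strand): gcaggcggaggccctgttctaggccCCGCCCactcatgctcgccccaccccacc

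The motif in Psmd4 ends 119 bases before the RefSeq start, that of Psmd2 21 bases, that of Psmg4 24 bases, and that of Psmb6 directly before it. The genes themselves lie at chr3:95032694-95042614 (minus strand), chr16:20651652-20663414 (plus strand), chr11:70525367-70527858 (plus strand) and chr13:34162964-34178173 (plus strand) in GRCm38.

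Within the 20S core, all 7 beta genes were higher, with a median log2 fold change of 0.15, whereas 5 of the 7 alpha genes were higher, with a median of 0.03 and no unadjusted p under 0.0952 (Psma7). In the fit with GC content and length as an offset these medians were 0.11 and 0.05, and the alpha gene Psma2 and the beta gene Psmb7 each had an unadjusted p under 0.05, while Psmb4 and Psmb6 no longer did. The difference between the rings was not tested. Psmb6, the subunit with the caspase-like site, was measured at 47.1, 47.1 and 45.9 CPM in the Dot1l(+/+) pools, 47.5, 59.0 and 54.0 in the Dot1l(fl/+) pools and 49.7, 53.5 and 43.7 in the Dot1l(fl/fl) pools. Its Dot1l(fl/+) pools all lay above the controls, replicate 1 narrowly, and its log2 fold change was 0.20 ± 0.08 (SE, unadjusted p = 0.0374, adjusted p = 0.569, edgeR). Psmb7, with the trypsin-like site, stood at 63.9, 67.6 and 56.8 CPM in the Dot1l(+/+) pools, 66.5, 77.0 and 70.2 in the Dot1l(fl/+) pools and 59.4, 69.4 and 65.6 in the Dot1l(fl/fl) pools. Here Dot1l(fl/+) replicate 1 lay inside the control range, and the log2 fold change was 0.18 ± 0.08 (unadjusted p = 0.0352, edgeR). Psmb5, with the chymotrypsin-like site, had 14.6, 12.9 and 14.6 CPM in the Dot1l(+/+) pools, 12.8, 17.6 and 16.0 in the Dot1l(fl/+) pools and 11.1, 13.0 and 14.3 in the Dot1l(fl/fl) pools, so that the 3 groups overlapped (0.14 ± 0.13, unadjusted p = 0.293, edgeR).

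Psmb4, which has no active site, was the most abundant beta gene per length and had 96.9, 95.5 and 89.5 CPM in the Dot1l(+/+) pools, 95.3, 117 and 104 in the Dot1l(fl/+) pools and 95.2, 99.8 and 98.1 in the Dot1l(fl/fl) pools. Dot1l(fl/+) replicates 2 and 3 were above all controls and replicate 1 was below 2 of them (log2 fold change 0.17 ± 0.07, unadjusted p = 0.0259, edgeR). The other non-catalytic beta genes Psmb1, Psmb2 and Psmb3 had fold changes of 0.15, 0.08 and 0.11 on the log2 scale, with unadjusted p of 0.0645, 0.382 and 0.455 (edgeR). The alpha genes ranged from -0.05 (Psma4) to 0.13 (Psma7).

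The ATPase ring of the cap was higher in all 6 genes, with a median log2 fold change of 0.10. Psmc2 had 102, 101 and 85.0 CPM in the Dot1l(+/+) pools, 106, 108 and 107 in the Dot1l(fl/+) pools and 104, 104 and 99.7 in the Dot1l(fl/fl) pools. The Dot1l(fl/+) pools were close together and above every control, and control replicate 3 was far below the other controls. Psmc3 was counted at 109, 112 and 92.6 CPM in the Dot1l(+/+) pools, 108, 126 and 122 in the Dot1l(fl/+) pools and 113, 115 and 108 in the Dot1l(fl/fl) pools. Psmc4 had 72.3, 79.1 and 66.6 CPM in the Dot1l(+/+) pools, 77.0, 82.3 and 79.6 in the Dot1l(fl/+) pools and 74.2, 75.0 and 74.4 in the Dot1l(fl/fl) pools. In both genes control replicate 3 was again the lowest of the 9 libraries, and Dot1l(fl/+) replicate 1 lay among the controls. The log2 fold changes were 0.16 ± 0.06 for Psmc2, 0.18 ± 0.07 for Psmc3 and 0.13 ± 0.06 for Psmc4 (SE, unadjusted p = 0.0246, 0.0281 and 0.0491, edgeR). Psmc1, Psmc5 and Psmc6 lay between 0.00 (Psmc6) and 0.07 (Psmc5), and none of them had an unadjusted p under 0.288.

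Among the 11 non-ATPase cap genes, 10 were higher, with a median of 0.10. Psmd4, a ubiquitin receptor of the cap, had the lowest unadjusted p of all proteasome genes. It was measured at 95.2, 89.6 and 79.2 CPM in the Dot1l(+/+) pools, 99.0, 102 and 98.8 in the Dot1l(fl/+) pools and 92.6, 88.7 and 92.4 in the Dot1l(fl/fl) pools. All Dot1l(fl/+) pools exceeded all controls and also all Dot1l(fl/fl) pools, with a log2 fold change against controls of 0.18 ± 0.06 (SE, unadjusted p = 0.0103, adjusted p = 0.541, edgeR). Psmd8, a lid subunit, had 65.1, 67.2 and 66.3 CPM in the Dot1l(+/+) pools, 69.6, 79.2 and 72.8 in the Dot1l(fl/+) pools and 72.1, 69.6 and 70.1 in the Dot1l(fl/fl) pools. Its controls were tight, and all pools of both floxed groups lay above them. Psmd6, another lid subunit, had 65.7, 67.3 and 61.0 CPM in the Dot1l(+/+) pools, 68.2, 77.0 and 69.8 in the Dot1l(fl/+) pools and 66.5, 67.4 and 65.8 in the Dot1l(fl/fl) pools, with the Dot1l(fl/+) pools above all other libraries. The log2 fold changes in Dot1l(fl/+) were 0.16 ± 0.06 for Psmd8 and 0.15 ± 0.06 for Psmd6 (unadjusted p = 0.0136 and 0.0266, edgeR). Psmd2, a scaffold subunit of the base, also had its Dot1l(fl/+) pools above all controls, at 0.10 ± 0.04 (unadjusted p = 0.0512, edgeR). Psmd14, the deubiquitinase of the lid, was at 0.11 ± 0.07 (unadjusted p = 0.145), and Psmd11 was the one gene with a lower level, at -0.11 ± 0.07 (unadjusted p = 0.159). The other 5 genes of the cap, Psmd1, Psmd3, Psmd7, Psmd12 and Psmd13, lay between 0.02 and 0.10.

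The immunoproteasome was represented mainly by Psmb10, with 48.5 ± 6.69 TPM in controls, while Psmb8 had 3.24 ± 0.423 TPM and Psmb9 1.86 ± 0.513 TPM. As a share of the level of the subunit it replaces, Psmb10 amounted to 64.2% ± 5.91 of Psmb7 in controls (SD, n = 3), Psmb8 to 5.10% ± 0.972 of Psmb5 and Psmb9 to 1.81% ± 0.476 of Psmb6. With the longest transcript as the length, the share of Psmb8 was 9.03% and that of Psmb9 1.19%, and the level of Psmb5, the partner of Psmb8, is one of the uncertain ones. Psmb10 was counted at 22.6, 20.2 and 17.5 CPM in the Dot1l(+/+) pools, 21.4, 25.5 and 25.3 in the Dot1l(fl/+) pools and 22.5, 21.5 and 20.6 in the Dot1l(fl/fl) pools. Dot1l(fl/+) replicates 2 and 3 were the highest 2 of the 9 libraries, and replicate 1 lay inside the control range (log2 fold change 0.26 ± 0.10, unadjusted p = 0.0225, adjusted p = 0.541, edgeR). The share of Psmb7 was 67.8% ± 4.07 with 1 and 67.0% ± 7.74 with 2 floxed alleles, within 1 SD of the control share.

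Psmb8 stood at 2.74, 2.96 and 2.29 CPM in the Dot1l(+/+) pools, 3.13, 2.47 and 4.12 in the Dot1l(fl/+) pools and 2.52, 4.35 and 2.79 in the Dot1l(fl/fl) pools. The highest Dot1l(fl/+) library was replicate 3 and the highest Dot1l(fl/fl) library replicate 2, and the groups overlapped. Psmb9, its neighbour in the major histocompatibility locus, had 1.75, 2.06 and 1.17 CPM in the Dot1l(+/+) pools, 1.68, 1.27 and 2.175 in the Dot1l(fl/+) pools and 0.920, 1.74 and 1.21 in the Dot1l(fl/fl) pools. The log2 fold changes against controls were 0.28 ± 0.24 and 0.29 ± 0.24 for Psmb8 and 0.05 ± 0.29 and -0.34 ± 0.31 for Psmb9, each time with 1 and then with 2 floxed alleles (unadjusted p = 0.251, 0.252, 0.865 and 0.282, edgeR). Psmb9 had 20 to 57 counts in a library.

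**Figure D3:**
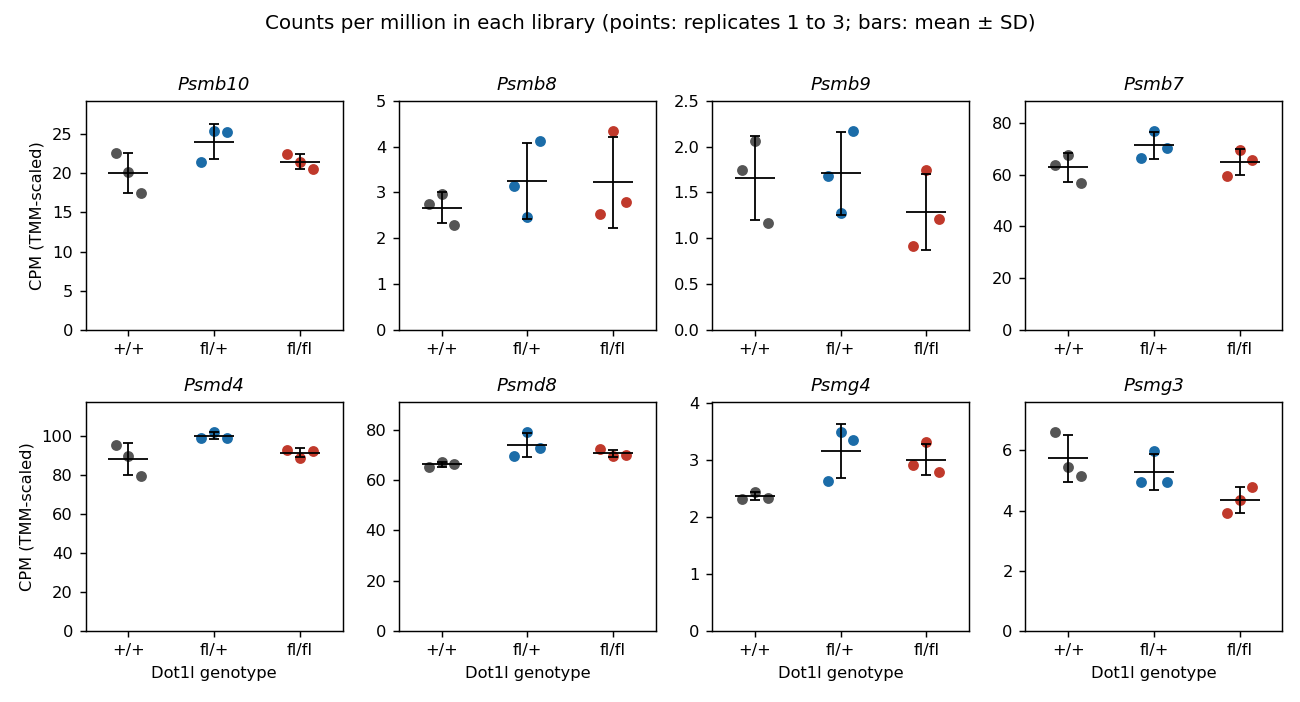
CPM (scaled by TMM, linear axes from 0) of 8 proteasome genes in each of the 9 libraries; points are replicates 1 to 3 of each Dot1l genotype from left to right, and black bars give mean ± SD (n = 3). Psmd4, Psmd8 and Psmg4 show all Dot1l(fl/+) points above all controls, Psmb10 and Psmb7 do not, and Psmg3 is lowest in Dot1l(fl/fl).

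Of the activators and the inhibitor, 2 of 5 were higher in Dot1l(fl/+), and their median log2 fold change was -0.02. Psme1 (PA28 alpha), which interferon induces, had 19.9, 19.9 and 17.1 CPM in the Dot1l(+/+) pools, 20.1, 19.4 and 23.9 in the Dot1l(fl/+) pools and 19.3, 21.5 and 19.9 in the Dot1l(fl/fl) pools. Its partner Psme2 had 2.79, 2.36 and 3.38 CPM in the Dot1l(+/+) pools, 3.45, 3.14 and 3.28 in the Dot1l(fl/+) pools and 3.20, 2.29 and 1.94 in the Dot1l(fl/fl) pools. For both genes the groups overlapped (0.16 ± 0.10 and 0.20 ± 0.19 for Dot1l(fl/+), unadjusted p = 0.131 and 0.313, edgeR). Psme3 had 102, 105 and 104 CPM in the Dot1l(+/+) pools, 102, 96.2 and 108 in the Dot1l(fl/+) pools and 105, 107 and 102 in the Dot1l(fl/fl) pools. Psme4 (PA200), another cap of the core, had 71.3, 67.6 and 68.9 CPM in the Dot1l(+/+) pools, 73.4, 67.6 and 63.6 in the Dot1l(fl/+) pools and 72.5, 66.6 and 69.8 in the Dot1l(fl/fl) pools. In both genes the groups overlapped. Psmf1, the inhibitor PI31, had 36.9, 37.5 and 37.8 CPM in the Dot1l(+/+) pools, 35.7, 35.5 and 36.9 in the Dot1l(fl/+) pools and 37.8, 34.3 and 36.5 in the Dot1l(fl/fl) pools. Its Dot1l(fl/+) pools lay just below the lowest control, by a log2 fold change of -0.05 ± 0.06 (unadjusted p = 0.384, edgeR).

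Of the 7 assembly factors, 5 were higher in Dot1l(fl/+), with a median of 0.08, and the chaperone pair Psmg3 and Psmg4 differed in direction. These proteins work as a dimer in building the alpha ring. Psmg4 was measured at 2.32, 2.45 and 2.33 CPM in the Dot1l(+/+) pools, 2.62, 3.50 and 3.36 in the Dot1l(fl/+) pools and 2.92, 3.32 and 2.79 in the Dot1l(fl/fl) pools. All pools of both floxed groups lay above all controls, with log2 fold changes of 0.42 ± 0.17 for Dot1l(fl/+) and 0.35 ± 0.17 for Dot1l(fl/fl) (unadjusted p = 0.0245 and 0.0562, edgeR), from 46 to 99 counts in a library. Psmg3 was measured at 6.62, 5.45 and 5.15 CPM in the Dot1l(+/+) pools, 4.94, 5.97 and 4.96 in the Dot1l(fl/+) pools and 3.92, 4.35 and 4.79 in the Dot1l(fl/fl) pools. All Dot1l(fl/fl) pools lay below all controls, and the Dot1l(fl/+) pools overlapped them, with log2 fold changes of -0.11 ± 0.14 for Dot1l(fl/+) and -0.40 ± 0.15 for Dot1l(fl/fl) (unadjusted p = 0.439 and 0.0159, edgeR). The unadjusted p of Psmg3 was above 0.05 without control replicate 1 (-0.29 on the log2 scale) or Dot1l(fl/fl) replicate 1 (-0.33). The level of Psmg4, computed per length, as a percentage of that of Psmg3 was 182, 234 and 236 in the control pools, 277, 305 and 353 in the Dot1l(fl/+) pools and 388, 398 and 304 in the Dot1l(fl/fl) pools. The 3 groups of ratios thus did not overlap between controls and either floxed group, and the pair was chosen with these values known. How often other gene pairs separate in this way was not tested. Psme2 as a percentage of Psme1 overlapped between all groups. Its control pools ranged from 14.9 to 24.8, those with 1 floxed allele from 17.2 to 21.5 and those with 2 from 12.2 to 20.7. Psmg4 (555 bases) is also shorter than Psmg3 (2893 bases). The shift of short genes in Dot1l(fl/+), given below, was not removed from the ratio.

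The other chaperones of the core, Psmg1 and Psmg2, also work as a pair. Psmg1 had 9.88, 10.3 and 7.89 CPM in the Dot1l(+/+) pools, 10.7, 10.2 and 9.92 in the Dot1l(fl/+) pools and 9.36, 9.81 and 8.01 in the Dot1l(fl/fl) pools. Psmg2 had 11.1, 12.8 and 11.2 CPM in the Dot1l(+/+) pools, 12.7, 14.9 and 12.3 in the Dot1l(fl/+) pools and 13.0, 13.4 and 12.6 in the Dot1l(fl/fl) pools. For both genes the Dot1l(fl/+) pools overlapped the controls (0.14 ± 0.12 and 0.18 ± 0.10 for Dot1l(fl/+), edgeR), and for Psmg1 all Dot1l(fl/fl) pools lay below all Dot1l(fl/+) pools. The chaperones of the ATPase ring are Psmd5, Psmd9 and Psmd10. Psmd5 stood at 66.1, 64.9 and 68.3 CPM in the Dot1l(+/+) pools, 67.4, 66.9 and 70.1 in the Dot1l(fl/+) pools and 69.7, 68.4 and 64.3 in the Dot1l(fl/fl) pools. Psmd9 stood at 21.2, 21.6 and 19.7 CPM in the Dot1l(+/+) pools, 21.4, 22.5 and 22.1 in the Dot1l(fl/+) pools and 19.7, 23.8 and 20.6 in the Dot1l(fl/fl) pools. Psmd10 had 17.3, 17.4 and 18.2 CPM in the Dot1l(+/+) pools, 15.6, 18.4 and 16.2 in the Dot1l(fl/+) pools and 15.8, 17.8 and 17.8 in the Dot1l(fl/fl) pools. None of these 3 had an unadjusted p under 0.379 in this comparison, and 24.9% of the windows of Psmd9 lie on the opposite strand of another gene.

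The size of the shift varied with the libraries. Taken over the 49 genes, the median deviation from the control mean was 0.02, 0.05 and -0.07 (log2 CPM) in the 3 control libraries, 0.03, 0.16 and 0.10 in the Dot1l(fl/+) libraries and 0.03, 0.07 and 0.04 in the Dot1l(fl/fl) libraries. Control replicate 3 was the lowest of the 9 libraries in 26 genes, and Dot1l(fl/+) replicate 2 was the highest in 26. Dot1l(fl/+) replicate 1 lay within the range of the controls by this median. Without control replicate 3 the 11 genes with an unadjusted p under 0.05 became 1, Psmd8 (2.04%, beside 3.05% of all genes), and the median log2 fold change 0.07, with 33 of 49 genes higher. Without Dot1l(fl/+) replicate 2, 3 genes had such a p (beside 4.71% of all genes), of which 2 (Psmc2 and Psmd4) were among the 11, and the median was 0.05. Leaving out Dot1l(fl/+) replicate 3 gave 6 (beside 2.90%), and leaving out replicate 1 of that group gave 18 (beside 6.28%) and the median was 0.15. Taken gene by gene, Psmc2 and Psmd4 lost their unadjusted p under 0.05 only without control replicate 3 and Psmd8 only without Dot1l(fl/+) replicate 2 among the 9 fits with a library left out, whereas Psmb4 and Psmd6 lost it in 2 of them, Psmb10 and Psmc3 in 3, Psmb7 and Psmg4 in 4, Psmb6 in 5 and Psmc4 in 7. By more than 1.5 times, the value without control replicate 3 was smaller for Psmc2 at 0.08, Psmc3 at 0.10, Psmc4 at 0.08, Psmd4 at 0.12, Psmb7 at 0.12 and Psmb10 at 0.17 (edgeR, unadjusted p = 0.0556 to 0.237), and without Dot1l(fl/+) replicate 2 for Psmb4 at 0.09, Psmb6 at 0.12, Psmd6 at 0.09 and Psmd8 at 0.11 (edgeR, unadjusted p = 0.0675 to 0.168), while Psmc4 was larger, at 0.20, without control replicate 2.

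**Figure D4:**
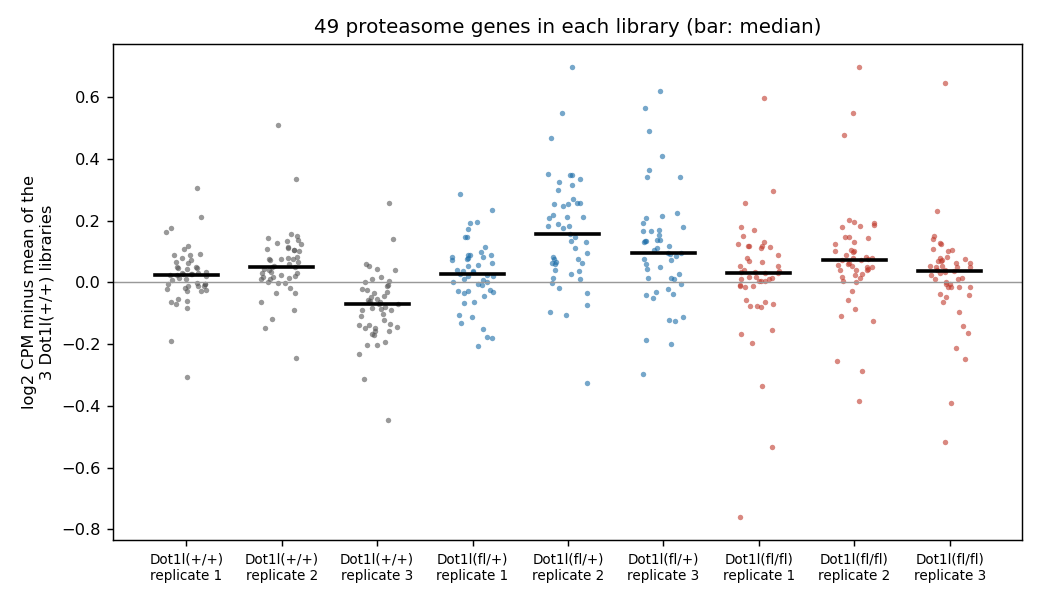
Difference between the log2 CPM of each of 49 proteasome genes (points) in a library and the mean of the 3 Dot1l(+/+) libraries; black bars are medians and colours the genotype. The bar of control replicate 3 is the lowest, at -0.07, and that of Dot1l(fl/+) replicate 2 the highest, at 0.16.

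**Figure D5:**
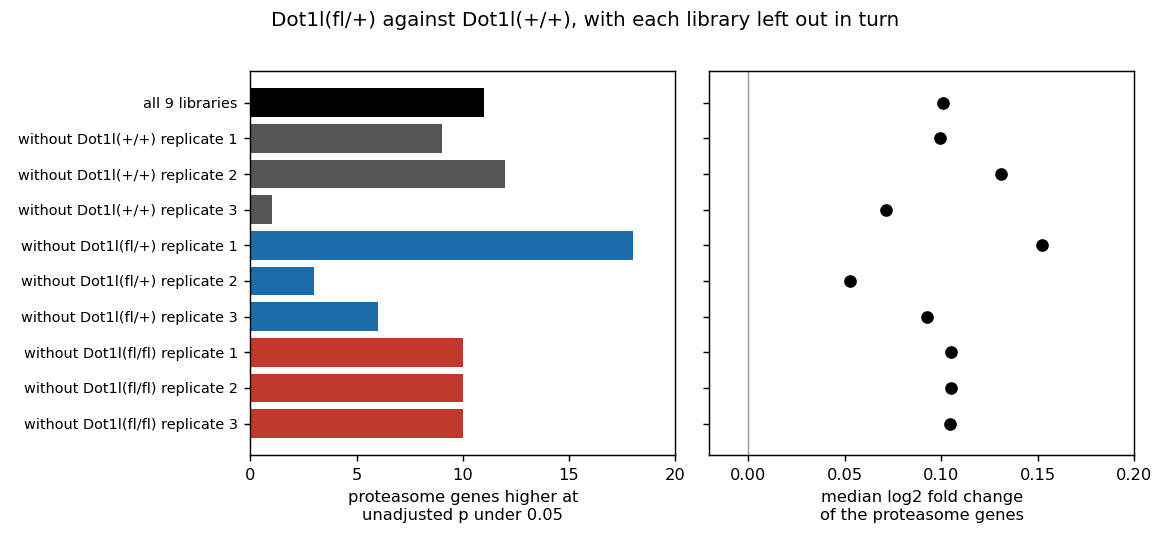
Dot1l(fl/+) against Dot1l(+/+) in fits of all 9 libraries and with each library left out: bars give the number of proteasome genes with an unadjusted p under 0.05, all of them higher, and points their median log2 fold change. The number runs from 1 without control replicate 3 to 18 without Dot1l(fl/+) replicate 1, and every median lies above 0.

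Gene length went with the same contrast. The proteasome genes had a median merged exon length of 2800 bases, against 3972 bases over all genes tested, and short genes as a whole were higher in Dot1l(fl/+). Genes were split by length into 5 classes of equal size. In the shortest class the median log2 fold change was 0.15 for 16 proteasome genes and 0.08 for the others, in the next class 0.11 for 16 and 0.02 for the others, and in the middle class 0.10 for 9 and 0.00 for the others. The 2 classes of longer genes held 4 proteasome genes each, with medians of -0.01 and 0.06, against -0.02 and -0.04 for the others. With an offset for length and GC content in the fit, 10 proteasome genes had an unadjusted p under 0.05 and a higher level (beside 4.48% of all genes), 6 of them among the 11, and the median was 0.08. The 5 genes whose p went above 0.05 in that fit were Psmb4 at 0.11 (unadjusted p = 0.0748), Psmb6 at 0.14 (0.0812), Psmb10 at 0.19 (0.0515), Psmc4 at 0.09 (0.143) and Psmg4, the shortest at 555 bases, at 0.27 (0.0988, edgeR). The 4 genes whose p came under 0.05 there were Psma2, Psmc6, Psmd2 and Psmd14.

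Genes that act with the proteasome but bear other symbols gave a mixed picture. Of 11 cap-associated and assembly factors tested, 7 were higher in Dot1l(fl/+), their median log2 fold change was 0.00, and 2 had an unadjusted p under 0.05 and a higher level. In this and the lists that follow, such calls are to be read beside the 4.30% of all genes that were higher and the 4.09% that were lower at that p (2.21% and 1.72% for Dot1l(fl/fl)). Pomp, the maturation factor of the core, had 61.5, 59.8 and 60.4 CPM in the Dot1l(+/+) pools, 65.4, 75.4 and 72.6 in the Dot1l(fl/+) pools and 57.5, 69.1 and 60.4 in the Dot1l(fl/fl) pools. All Dot1l(fl/+) pools lay above all controls, at 0.23 ± 0.07 (unadjusted p = 0.00669, edgeR), whereas Dot1l(fl/fl) was at 0.04 ± 0.07. Sem1, the smallest lid subunit, had 16.8, 17.9 and 18.2 CPM in the Dot1l(+/+) pools, 19.9, 22.7 and 22.2 in the Dot1l(fl/+) pools and 16.9, 22.6 and 16.5 in the Dot1l(fl/fl) pools. Here too the Dot1l(fl/+) pools lay above the controls (0.29 ± 0.11, unadjusted p = 0.0250, edgeR), and Dot1l(fl/fl) was at 0.09 ± 0.12. Its p went above 0.05 without control replicate 1 or Dot1l(fl/+) replicate 2 or 3.

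Upstream of the particle, the 8 genes that control proteasome transcription had medians of 0.00 and -0.03 in the groups with 1 and 2 floxed alleles, and 0 of 8 had an unadjusted p under 0.05 in either comparison. Nfe2l1, the factor that raises proteasome genes when the particle is inhibited, was at 0.03 ± 0.05 and -0.05 ± 0.05 (unadjusted p = 0.557 and 0.346, edgeR). Of the 6 genes of ubiquitin and its activation, 3 were higher in Dot1l(fl/+), and the polyubiquitin gene Ubb, with 204, 137 and 165 CPM in the Dot1l(+/+) pools, 144, 139 and 163 in the Dot1l(fl/+) pools and 127, 105 and 156 in the Dot1l(fl/fl) pools, was lower in Dot1l(fl/fl), at -0.39 ± 0.14 (unadjusted p = 0.0164, edgeR), with its groups overlapping. Without control replicate 1 it was at -0.23 (unadjusted p = 0.117) and without Dot1l(fl/fl) replicate 2 at -0.25 (0.0891, edgeR). Among 9 shuttle and p97 genes, 7 were higher in Dot1l(fl/+). The shuttle Rad23b was at 0.27 ± 0.10 and the shuttle Ubqln2 at -0.11 ± 0.05 (unadjusted p = 0.0196 and 0.0312, edgeR). Without control replicate 3 both lost a p under 0.05 (0.20 and -0.08, unadjusted p = 0.0951 and 0.139, edgeR), and Ubqln2 also without control replicate 2 or Dot1l(fl/+) replicate 3.

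Genes of interferon response and peptide presentation, for which the immunoproteasome cuts peptides, were higher in 8 of 11 in Dot1l(fl/+), with a median of 0.21, and in 5 of 11 in Dot1l(fl/fl), with a median of -0.05. In Dot1l(fl/+) this went with replicate 3, since the summed level of the list was 225.8, 256.2 and 312.4 CPM in that group and 220.5 to 247 CPM in controls, and without that library 6 of 11 were higher with a median of 0.00. The median also moved by more than 1.5 times on leaving out control replicate 2 (0.12) or 3 (0.14), and that of Dot1l(fl/fl) lay above 0 without control replicate 1 (0.04), control replicate 3 (0.01) or Dot1l(fl/fl) replicate 1 (0.06). B2m, the light chain of the presenting molecules, had 66.4, 70.9 and 61.3 CPM in the Dot1l(+/+) pools, 61.9, 83.0 and 93.4 in the Dot1l(fl/+) pools and 65.4, 75.0 and 76.3 in the Dot1l(fl/fl) pools. It was the one gene of this list with an unadjusted p under 0.05 against controls, at 0.26 ± 0.12 for Dot1l(fl/+) (unadjusted p = 0.0421, edgeR). Its value was 0.13 without Dot1l(fl/+) replicate 3 (unadjusted p = 0.255, edgeR) and 0.41 without replicate 1 of that group, and its p also went above 0.05 without Dot1l(fl/+) replicate 2, control replicate 1 or control replicate 3. Its Dot1l(fl/+) replicate 3 was the highest library, as for Psmb8 and Psmb9 among the Dot1l(fl/+) pools.

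Markers of the cells in the tissue differed between the groups as well. Of 14 microglia markers, 11 were higher in Dot1l(fl/+) with a median of 0.16 and 12 in Dot1l(fl/fl) with a median of 0.15. Their summed level in replicates 1 to 3 was 459.5, 480.5 and 478 CPM in controls and 459.8, 564.6 and 522 CPM in Dot1l(fl/+). In Dot1l(fl/fl) it was 495.6, 541.2 and 508.3 CPM. Of 10 oligodendrocyte markers, 6 were higher in Dot1l(fl/+) with a median of 0.10, and 4 in Dot1l(fl/fl). The 10 dopamine neuron markers were all lower, with medians of -0.19 for 1 and -0.44 for 2 floxed alleles. The 6 choroid plexus markers summed to 145, 58.4 and 135.6 CPM in replicates 1 to 3 of the controls. These sums were 105.5, 169.4 and 577.6 CPM in Dot1l(fl/+), highest in replicate 3, and 38.8, 30.3 and 35.2 CPM in Dot1l(fl/fl). In Dot1l(fl/+), the median was 0.00 for endothelial markers, 0.01 for astrocytes, -0.02 for neurons, -0.04 for 6 tested of 10 markers of perivascular macrophages and blood leukocytes, -0.27 for 5 blood genes and 0.11 for 6 genes of cortex and hippocampus. In Dot1l(fl/fl) these medians were -0.01, 0.02, 0.00, -0.07, 0.10 and 0.09, and no marker was at 0 in all libraries. The part of these cells in the values of the proteasome genes was not tested.

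The second comparison asked the same of 2 floxed alleles. In Dot1l(fl/fl) midbrain 37 of 49 proteasome genes (75.5%) were higher than in controls, against 50.4% of all genes, with a median log2 fold change of 0.04 against 0.00. Psmc3ip and Psme2b are both among the 37. Again 0 genes passed the adjusted threshold (0%), beside 694 at an unadjusted p under 0.05. There were 3 past it in DESeq2 on all libraries and 3 when the replicate number was fitted as a block. The lowest adjusted p of a proteasome gene was 0.999 (edgeR, Benjamini-Hochberg). At an unadjusted p under 0.05 there was 1 higher gene, Psmc3ip, beside 2.21% of all genes, and 1 lower gene, Psmg3, beside 1.72%, so that no subunit of the core, the cap or the immunoproteasome was among them. In 4 genes all Dot1l(fl/fl) pools lay above all controls, Psma4, Psmd8, Psmg4 and Psmc3ip (5.03% of all genes), and in 1, Psmg3, below (5.25%). The median was 0.06 for the alpha genes, 0.05 for the beta genes, 0.10 for the immunoproteasome, 0.06 for the ATPases, 0.04 for the non-ATPases, which were higher in 11 of 11, 0.01 for activators and inhibitor and 0.02 for the assembly factors. Without control replicate 3, 25 of 49 genes were higher and the median was 0.00.

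Psmc3ip had 1.32, 0.945 and 0.939 CPM in the Dot1l(+/+) pools, 1.06, 1.77 and 1.60 in the Dot1l(fl/+) pools and 1.64, 1.58 and 1.70 in the Dot1l(fl/fl) pools, from 22 to 50 counts in a library. The Dot1l(fl/fl) pools lay above every control, by 0.62 ± 0.26 on the log2 scale (unadjusted p = 0.0295, edgeR), and 17.6% of its windows lie opposite to the gene Mlx. Leaving out any of 5 of the 9 libraries took its p above 0.05.

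The last comparison set the floxed groups against each other. Since both were already compared with the same controls, it is no independent view of them. Of the 49 genes, 38 were lower in Dot1l(fl/fl) than in Dot1l(fl/+) and 11 were higher, and the median log2 fold change was -0.04, whereas 50.5% of all genes were higher, with a median of 0.00. All genes together again gave 0 past the adjusted threshold (0%), beside 1145 at an unadjusted p under 0.05. There were 14 past it in DESeq2 on all libraries and 3 under the replicate block. At an unadjusted p under 0.05 there was 1 higher proteasome gene (3.60% of all genes) and 0 lower (2.87%), and the lowest adjusted p was 0.763 (edgeR, Benjamini-Hochberg). The direction of these few calls turned with the setting. DESeq2 on all libraries gave 0 higher and 1 lower (Psmb5), beside 938 of 28316 genes, 497 of them higher. Library totals gave 0 and 2 (all genes: 1148 of 17671, 546 higher) and no filter 0 and 4 (1795 of 28316, 880 higher). Leaving out Dot1l(fl/+) replicate 1 gave 0 and 6 (1676 of 17884, 903 higher). Leaving out replicate 2 of that group gave 3 and 0 (1752 of 17891, with 5.53% of all genes higher). The replicate block gave 1 and 1, the lower gene being Psmb5 (1259 of 17671, 696 higher). All Dot1l(fl/fl) pools lay above all Dot1l(fl/+) pools in 2 genes, Psma4 and Psmd11 (5.98% of all genes), and below them in 7, Psmc2, Psmc4, Psmd2, Psmd4, Psmd6, Psmg1 and Psmg3 (5.14%). Psma4, an alpha subunit, was the higher gene, with 30.8, 31.9 and 30.2 CPM in the Dot1l(+/+) pools, 27.3, 32.4 and 30.2 in the Dot1l(fl/+) pools and 33.5, 33.2 and 33.7 in the Dot1l(fl/fl) pools. Its Dot1l(fl/fl) pools were tight and above every other library, by 0.16 ± 0.07 against Dot1l(fl/+) (unadjusted p = 0.0459, edgeR), and 11.6% of its windows are shared with other genes. Leaving out any of 8 of the 9 libraries took its unadjusted p above 0.05, and without Dot1l(fl/+) replicate 1 its value was 0.10 (unadjusted p = 0.201, edgeR).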

How the data were processed

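RNA was sequenced from dissected midbrain, 3 libraries for each of 3 Dot1l genotypes, with a directional kit. The authors deposited raw counts per Ensembl gene for each library, mapped to GRCm38.p4 per the labels. Their notes name bcl2fastq 2.17, Trimmomatic 0.30 and DESeq2 1.10.1, while the aligner, the counter, the annotation release and the strand setting are not given in the sources used here. The 3 deposited tables of the authors' own DESeq2 comparisons hold fold changes and p-values and were not used.

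Symbols, positions and lengths came from GENCODE M21, which held 47310 of the 47729 identifiers and 99.94% of the counts. The counts, 16422135 to 28403218 per library, were fitted with edgeR 4.0.16 in R 4.3.3 (quasi-likelihood test, TMM factors of 0.988 to 1.01, filterByExpr, genotype as the only term since no source ties the replicate numbers to the litter pairs, all 9 libraries, Benjamini-Hochberg over 17671 genes, threshold 0.05), and the fit was tested on simulated data with 200 changed genes. CPM were scaled by TMM. TPM were computed from the counts and the merged exon length. Replicates differed by more than sampling noise (chi-square per degree of freedom 4.47 to 16.5). The pairs of Dot1l(fl/+) replicate 2 with replicates 1 and 3 of its group were the highest, at 15.2 and 16.5, and the next pair was at 8.26. Motifs were searched in RefSeq windows of 300 bases.

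Alternatives were DESeq2 1.42.0, a fit of the compared groups alone, other scalings, other filters, an offset for length and GC content, the replicate number as a block and each library left out. Values per library were given for proteasome genes with an unadjusted p under 0.05 in any comparison, the immunoproteasome genes and their constitutive partners, and the activators, inhibitor and assembly genes. Beyond these, Dot1l and genes of 5 pathway lists with an unadjusted p under 0.05 against controls were named, and Nfe2l1 and the other proteasome genes named with a level, fold change or p were outside this rule and were chosen after their values were seen. The members, the lists and the motifs were chosen with earlier results of these data known. Figures were drawn with matplotlib 3.10.9.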

Additional observations from a re-analysis of the deposited data

How the results depend on the processing

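No proteasome gene had an adjusted p under 0.05 in any of 19 alternatives in any comparison, and the lowest was 0.163. The median log2 fold change of the proteasome genes was 0.10 for Dot1l(fl/+) against controls, with a range of 0.05 to 0.15 over the left-out libraries. It was 0.04 (0.00 to 0.08) for Dot1l(fl/fl) against controls and -0.04 (-0.09 to -0.02) between the floxed groups. In each alternative it moved by less than the pooled SD between libraries of the members' mean level, 0.06 on the log2 scale. That SD is larger than the medians of 0.04 and -0.04, so staying below it does not show that these hold. Of all genes, 0 were called in each comparison. For Dot1l(fl/+) against controls, DESeq2 called 7 on all libraries and 42 on the 2 groups, edgeR on the 2 groups 1, no filter 251 and a library left out 0 to 5. For Dot1l(fl/fl) against controls these calls were 3, 8, 4, 118 and 0 to 4. Between the floxed groups, DESeq2 called 14 and 8, no filter 164 and a library left out 0 to 12. Of the proteasome genes with an unadjusted p under 0.05, a library left out gave 1 to 18 in place of 11, 0 to 3 in place of 2 and 0 to 6 in place of 1. Over all genes such calls ran there from 976 to 2235, 382 to 942 and 876 to 1752. Both DESeq2 fits gave 1 in place of 2. In place of 1 between the floxed groups, the filter of 10 counts, DESeq2 size factors, library totals and the length and GC offset each gave 2, and no filter 4, of which 1 each was lower in Dot1l(fl/fl), except 2 with library totals and 4 with no filter. The cause of these differences was not tested. The study's methods describe pools paired by litter but do not say that the replicate numbers mark these pairs. Same-numbered libraries correlated at 0.0222 to 0.317, 6 of 9 over 0.1, and 6 of 9 libraries correlated best with their own number. With the replicate block, 0 genes were called for Dot1l(fl/+), 3 for Dot1l(fl/fl) and 3 between the floxed groups. An unadjusted p under 0.05 was held by 12 (the 11 and Psmb1), 2 and 2 proteasome genes, beside 1651, 782 and 1259 of all 17671 genes. With the block and the offset, 3 genes were called for Dot1l(fl/fl) and 4 between the floxed groups. There, 3 proteasome genes had an unadjusted p under 0.05, beside 1117 of all 17671 genes. Of the 14 proteasome genes with an unadjusted p under 0.05 in a comparison, none changed sign there under these alternatives, while other members did. Depth limits Psmb9, Psme2, Psmg4, Psmc3ip, Psma8 and Psmb11, with under 100 counts in each library.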
